A study of Mus musculus with 16 samples.

Results

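The 9 genes described here encode the working parts of 2 forms of lytic cell death, pyroptosis and necroptosis. They are *Nlrp3*, *Pycard*, *Casp1*, *Casp4* and *Gsdmd* of the inflammasome pathway, *Casp8* and *Ripk1*, which stand where the pathways meet, and *Ripk3* and *Mlkl* of necroptosis. They were chosen by gene symbol, as 9 of the 32285 genes listed for each library, and all 9 were present. Single-nucleus RNA-seq was read in hippocampi of 16 male mice, 1 mouse per library, and unique molecular identifiers (UMIs, each marking 1 captured RNA molecule) were summed per gene, library and class of nuclei. Of these libraries, 8 came from C57BL/6 mice (wild type, WT) aged 2 months and 23 days, 4 given vehicle and 4 given DMXAA. The other 8 came from mice that lack *Ifnar1* (KO), which encodes a chain of the type I interferon receptor, aged 3 months and 3 days, again 4 given vehicle and 4 given DMXAA. DMXAA is an agonist of mouse STING, the adaptor that passes on signals from cytosolic DNA, and was given by repeated intraperitoneal injection. The knockout is in every cell of the mouse, and genotype, age and cohort cannot be told apart in these groups. All 4 groups share sex, tissue and protocol.

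In the inflammasome pathway, a sensor such as NLRP3 meets danger signals inside the cell and gathers the adaptor ASC, the product of *Pycard*, which recruits caspase-1. Caspase-1 cleaves interleukin-1β and interleukin-18 and frees the pore-forming part of gasdermin D, while caspase-4 (also called caspase-11 in mice) cleaves gasdermin D after binding bacterial lipopolysaccharide. In necroptosis, the kinases RIPK1 and RIPK3 lead to phosphorylation of MLKL, which breaks the plasma membrane, and caspase-8 holds this route in check. In the brain, inflammasome genes are best known from microglia, the resident immune cells.

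The study gave DMXAA to both genotypes while examining how interferon bears on neuronal genes controlled by MEF2C. Here DMXAA was compared with vehicle in each genotype for the 9 genes. On GRCm38, *Casp1* (ENSMUSG00000025888, chromosome 9, 5298517 to 5307265) and *Casp4* (ENSMUSG00000033538, chromosome 9, 5308828 to 5336783) are neighbours on the plus strand, 1562 bases apart. *Nlrp3* lies on chromosome 11 (ENSMUSG00000032691, 59541568 to 59566956), *Pycard* on chromosome 7 (ENSMUSG00000030793, 127989708 to 127993867), *Gsdmd* on chromosome 15 (ENSMUSG00000022575, 75862327 to 75867408) and *Casp8* on chromosome 1 (ENSMUSG00000026029, 58795374 to 58847503). *Ripk1* lies on chromosome 13 (ENSMUSG00000021408, 34002363 to 34037147), *Ripk3* on chromosome 14 (ENSMUSG00000022221, 55784995 to 55788865) and *Mlkl* on chromosome 8 (ENSMUSG00000012519, 111311797 to 111338177). None of the 9 overlaps another annotated gene on its own strand, and *Ripk1* is overlapped on the opposite strand by *Serpinb6a*.

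The promoter windows of *Casp4* and *Casp1* are shown because *Casp4* had the largest DMXAA change among the genes that could be tested and *Casp1* is its neighbour. Each window runs from 250 bases before to 50 bases after a transcript start in RefSeq (GRCm38.p6, plus strand, 300 bases). Capitals mark matches, on either strand, to AANNGAAA, the core bound by interferon regulatory factors (IRFs).
Casp4, chr9:5308599-5308898: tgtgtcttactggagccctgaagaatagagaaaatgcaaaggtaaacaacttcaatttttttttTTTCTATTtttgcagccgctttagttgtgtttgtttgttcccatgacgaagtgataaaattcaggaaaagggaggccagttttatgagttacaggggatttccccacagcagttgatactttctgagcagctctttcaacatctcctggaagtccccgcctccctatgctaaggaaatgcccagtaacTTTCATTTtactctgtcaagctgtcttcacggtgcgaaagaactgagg
Casp1, chr9:5298267-5298566: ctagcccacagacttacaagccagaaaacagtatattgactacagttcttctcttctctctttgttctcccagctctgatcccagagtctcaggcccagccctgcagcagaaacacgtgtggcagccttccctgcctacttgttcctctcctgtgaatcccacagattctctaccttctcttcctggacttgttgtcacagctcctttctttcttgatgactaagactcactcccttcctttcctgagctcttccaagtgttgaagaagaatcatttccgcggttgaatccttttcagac
The *Casp4* window held 2 matches, which begin at bases 65 and 253, and the *Casp1* window held none. Of all 32851 RefSeq windows of this length, 23.9% held the IRF core. The RefSeq windows gave 11 starts for 8 of the 9 genes, with none listed for *Gsdmd*. The longer interferon-stimulated response element (ISRE), which includes the IRF core, was found only in the second *Ripk1* window, against 3.44% of all windows. *Casp8* had 2 IRF core matches, *Pycard* had 1, the 2 *Nlrp3* windows had 1 and 2, and *Mlkl* and *Ripk3* had none.

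The libraries held 7869 to 12457 barcodes, of which 5163 to 9237 nuclei were kept, with 33140515 to 52464028 UMIs per library. Any pair of libraries shared 12 to 41 barcodes. The targeted gene, *Ifnar1*, was at 17.9 ± 1.93 CPM (UMIs of the gene scaled to a common total of UMIs per library or class; SD, n = 8) in WT libraries and 11.7 ± 0.568 in KO libraries over all nuclei (two-sided exact permutation test, p = 0.000155, the smallest this test can give), and every KO library lay below every WT library. UMIs from outside a deleted part count toward this level. Genes that were not targeted were lower in KO libraries too. The nuclear RNA *Malat1* stood at 31.7% of its WT level, against 65.2% for *Ifnar1*. The share of all genes lower in KO libraries is given below with the comparison at rest. The *Ifnar1* level therefore checks the labels only in part. The library WT DMXAA replicate 3 stood apart. Its level of *Malat1*, a nuclear RNA, was 23689 CPM, against 74905 to 92181 in the other WT DMXAA libraries and 12670 to 27808 in the KO libraries. *Ifnar1* was at 13.6 CPM in it, and its interferon-stimulated genes were raised (*Oasl2* 6.9 CPM, against 1.41 to 2.25 with vehicle in WT). It also held 182 nuclei classed as border macrophages, against at most 38 in any other library. Over all its nuclei, however, 8 border macrophage markers summed to 19.5 CPM, against 22.0 to 26.6 CPM in the other WT DMXAA libraries. Its 7 monocyte and neutrophil markers summed to 38.4 CPM, against 17.0 to 20.1 CPM. Which cells the 182 nuclei were was not tested. Most fold changes and ratios that rest on WT DMXAA libraries are therefore also given without this library.

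Nuclei were sorted into 13 classes by marker genes. The microglial class held 4731 of 108878 nuclei (4.35%), 209 to 386 per library, and all 9 microglial markers were detected in it. Its depth was 376854 to 846028 UMIs per library, so 1 UMI was worth between 1 and 3 CPM. Of the markers of other cells it could hold, *Lyve1* and *Pf4* of border macrophages, *Cd3e*, *Cd3g* and *Trac* of T cells and *Cd79a* of B cells were at 0 in all 16 microglial samples. The T cell list (6 genes) summed to at most 8.95 CPM and the B cell list (5 genes) to at most 16.2 CPM in any of them. The border macrophage list (8 genes) summed to 212 to 381 CPM and the monocyte and neutrophil list (7 genes) to 558 to 856 CPM, so other genes of these lists were read in this class.

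Among the nuclei kept, microglia held most of the UMIs of *Nlrp3*, *Gsdmd*, *Casp8* and *Casp4*, and few of those of *Ripk1* and *Mlkl*. The nuclei kept held 38.2% to 60.6% of the UMIs of a library, and 1189 to 2540 nuclei per library had over 4000 genes and were left out, so these are not shares of all hippocampal RNA. Of the UMIs of each gene over all nuclei kept and all libraries, microglia held 86.1% for *Nlrp3* (618 of 718), 70.01% for *Gsdmd* (516 of 737), 68.3% for *Casp8* (2012 of 2944) and 60.7% for *Casp4* (275 of 453). The share was lower for *Casp1* (36.2%, 181 of 500) and *Pycard* (16.3%, 913 of 5585), which also had UMIs in neurons. It was lowest for *Ripk1* (5.71%, 439 of 7695) and *Mlkl* (3.79%, 16 of 422). *Ripk3* had 21 UMIs in all, 8 of them in microglia. With nuclei over 4000 genes kept, the microglial share was 80.2% for *Nlrp3*, 64.8% for *Gsdmd*, 61.5% for *Casp8* and 48.3% for *Casp4*, which was then no longer most of its UMIs. It was 18.1% for *Casp1* (187 of 1032), 9.95% for *Pycard* and 3.45% for *Ripk1*.

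The level of the sensor gene *Nlrp3* was 60.3 ± 29.4 CPM (SD, n = 4) in microglia of WT vehicle libraries and 34.3 ± 23.03 CPM in border macrophages, the macrophages of the brain's surfaces and vessels. No other class had more than 1 *Nlrp3* UMI in these libraries except excitatory neurons, with 4 UMIs (0.0384 CPM). *Pycard*, the adaptor, was at 134 ± 11.2 CPM in microglia, 35.1 ± 20.9 in border macrophages, 14.5 ± 4.21 in inhibitory neurons and 11.3 ± 1.98 in excitatory neurons. It was therefore lower in neurons than in microglia but far above the limit of detection there, with 1170 UMIs in excitatory neurons of the WT vehicle libraries. Astrocytes (7.30 ± 2.70 CPM), oligodendrocyte precursor cells (OPCs, 6.90 ± 2.95 CPM) and oligodendrocytes (4.28 ± 2.97 CPM) held less. These levels are per UMI of a class and not per nucleus. The median UMIs per nucleus ran from 1566 to 2145 in microglia and from 7610.5 to 10405 in excitatory neurons. Classes may therefore rank otherwise per nucleus.

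*Casp1* was at 22.5 ± 6.73 CPM in microglia and 29.6 ± 26.8 in border macrophages, the latter from 10 UMIs. In excitatory neurons it was at 0.757 ± 0.298 CPM, from 78 UMIs. *Casp4* was at 26.9 ± 10.7 CPM in microglia and 36.5 ± 17.6 CPM in border macrophages (10 UMIs). Endothelial nuclei were at 27.1 CPM from 2 UMIs in 2 WT vehicle libraries and at 23.7 ± 7.21 CPM (n = 4, 10 UMIs) in KO vehicle libraries. Fibroblasts had a *Casp4* level of 4.58 ± 4.68 CPM (9 UMIs), and astrocytes had 0 UMIs, which allows up to 0.293 CPM over the group. *Gsdmd*, the pore gene, was at 54.6 ± 8.80 CPM in microglia, 36.9 ± 23.9 in border macrophages and 8.23 ± 2.85 in fibroblasts. In excitatory neurons *Gsdmd* had 6 UMIs (0.0561 CPM).

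*Casp8* was at 242 ± 41.0 CPM in microglia and 128 ± 69.1 in border macrophages. It was also read in choroid plexus epithelium (33.9 ± 7.11 CPM, n = 3, 52 UMIs) and fibroblasts (19.4 ± 6.14 CPM, 37 UMIs). Oligodendrocytes were at 1.70 ± 0.403 CPM and excitatory neurons at 0.243 ± 0.139 CPM. Endothelial nuclei were at 41.9 CPM from 5 UMIs in 2 WT vehicle libraries. In KO vehicle libraries endothelial *Casp8* was at 63.1 ± 12.7 CPM (n = 4, 28 UMIs). *Ripk1* was read in every class, with endothelial nuclei at 47.8 CPM from 4 UMIs in 2 WT vehicle libraries. Its level was 79.1 ± 22.8 CPM in border macrophages, 42.3 ± 3.67 in microglia, 40.6 ± 17.99 in fibroblasts, 31.6 ± 2.79 in oligodendrocytes, 29.7 ± 6.35 in OPCs, 27.1 ± 4.14 in astrocytes, 11.6 ± 2.33 in inhibitory neurons and 8.59 ± 0.742 in excitatory neurons.

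The executioner of necroptosis, *Mlkl*, had most of its UMIs in the oligodendrocyte lineage and fibroblasts, while its highest mean level was in endothelial nuclei, from few UMIs. Oligodendrocytes held 49.5% of its UMIs, OPCs 17.8% and fibroblasts 10.9%. In WT vehicle libraries its level was 4.75 ± 2.03 CPM in oligodendrocytes (49 UMIs), 4.03 ± 1.01 in OPCs (15 UMIs) and 5.04 ± 3.86 in fibroblasts (10 UMIs). Endothelial nuclei were at 13.6 CPM from 1 UMI in 2 WT vehicle libraries, and at 28.3, 9.77, 13.5 and 35.5 CPM (9 UMIs) in the 4 KO vehicle libraries, above fibroblasts in 5 of 6 vehicle libraries. In microglia it was 0.748 ± 0.865 CPM, from 2 UMIs, below the 1.17 CPM that 3 UMIs over the group would give. *Ripk3*, the kinase that acts on MLKL, had 5 UMIs in all classes of the WT vehicle libraries, 1 each in mural cells, border macrophages, microglia, astrocytes and excitatory neurons. Oligodendrocytes, where *Mlkl* was read, had 0 *Ripk3* UMIs in these libraries, which allows up to 0.280 CPM.

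The order of classes was compared between neighbours over the 8 vehicle libraries by two-sided exact sign-flip permutation tests on the paired difference in CPM. The order itself was set by the means of the WT vehicle libraries, which are among these 8. The tests and the counts of libraries below are therefore not independent of the order. None of 108 neighbour pairs passed an adjusted p of 0.05, and the lowest adjusted p was 0.121 (smallest possible unadjusted p with 8 libraries, 0.00781). *Casp1* was higher in microglia than in inhibitory neurons, the next class, in 8 of 8 libraries, and *Casp4* was higher in microglia than in fibroblasts in 8 of 8 (exact permutation p = 0.00781 each). *Pycard* and *Casp8* were higher in microglia than in border macrophages in 7 of 7 libraries (exact permutation p = 0.0156 each, adjusted p = 0.169). Microglia and border macrophages, neighbours at the top of the order for *Nlrp3*, *Casp1* and *Gsdmd*, were not told apart beyond their spread (exact permutation p = 0.0938, 0.406 and 0.109).

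**Figure D1:**
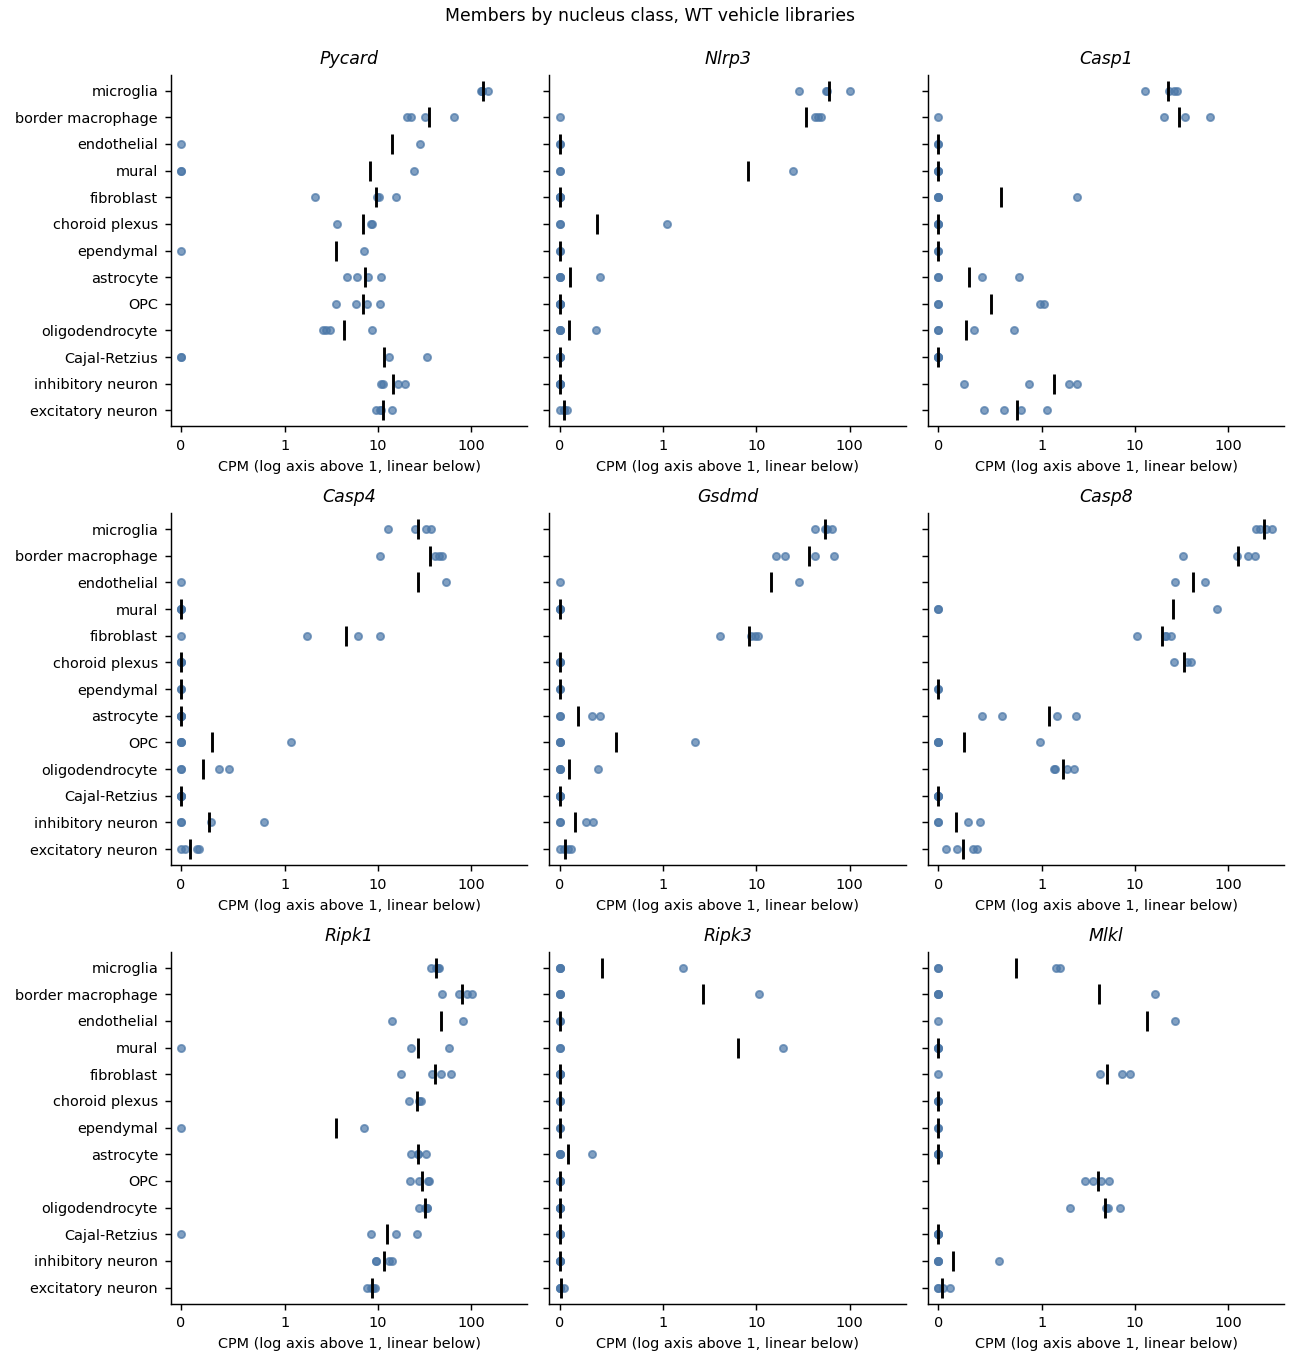
Level of each of the 9 genes (x axis, CPM, logarithmic above 1 and linear below) in each nucleus class (y axis) of the WT vehicle libraries. Points are libraries and bars are means. *Nlrp3*, *Gsdmd* and *Casp8* are highest in microglia and border macrophages, *Casp4* in border macrophages, endothelial nuclei (2 UMIs) and microglia, *Pycard* is also read in every neuronal class, *Ripk1* is spread over the classes, and *Mlkl* lies in oligodendrocytes, OPCs, fibroblasts and endothelial nuclei.

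RNA freed from broken cells can add UMIs to every class, so each gene's level outside microglia was set beside that of the 9 microglial markers, as a percentage of the microglial level over all libraries. In excitatory neurons the markers stood at 0.0365% to 3.39% of their microglial level (median 0.199%). There *Casp8* (0.0846%), *Gsdmd* (0.0949%), *Nlrp3* (0.0528%) and *Casp4* (0.271%) lay within the range of the markers, whose upper end was set by *P2ry12*, so these neuronal UMIs cannot be told apart from RNA carried over from other cells. *Pycard* stood at 8.30%, above every marker, and at 10.97% in inhibitory neurons, where the markers reached 2.88%. *Ripk1* stood at 15.8% in excitatory neurons. *Casp1* stood at 2.43% in excitatory neurons, within that range too and with the same limit, and at 4.37% in inhibitory neurons, above the highest marker. In oligodendrocytes the markers stood at 0.0557% to 1.47%, while *Mlkl* stood at 279% and *Ripk1* at 57.5%. In choroid plexus the markers stood at 0.0709% to 15.2% (median 0.363%). The highest of them, *Cx3cr1*, lay above *Casp8* at 14.9%, and the median lay below it.

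In WT microglia, with all 16 libraries, DMXAA moved none of the 7 genes that could be tested past the threshold. The largest difference among them was that of *Casp4*. *Casp4* in WT microglia was at 32.8, 37.3, 24.7 and 12.9 CPM with vehicle (replicates 1 to 4, 68 UMIs) and at 63.6, 58.0, 28.4 and 46.3 CPM with DMXAA (142 UMIs). Replicates 1, 2 and 4 with DMXAA lay above all 4 vehicle libraries, and replicate 3 lay among them. The log2 fold change was 0.89 ± 0.31 (SE; 1.86-fold) with an adjusted p of 0.235 (unadjusted p = 0.0115) by edgeR's quasi-likelihood test over 8940 genes. A call required a Benjamini-Hochberg adjusted p below 0.05 together with a log2 fold change beyond 0.1 in size. In KO microglia *Casp4* was at 24.6, 9.54, 17.5 and 13.2 CPM with vehicle and 15.9, 12.7, 17.9 and 26.2 CPM with DMXAA, and the groups overlapped (log2 fold change 0.14 ± 0.40, adjusted p = 0.968 by edgeR). The difference between the genotypes' DMXAA effects was 0.75 ± 0.52 on the log2 scale (adjusted p = 0.669 by edgeR), so a difference between the genotypes was not shown.

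Without WT DMXAA replicate 3, *Casp4* was called higher in WT microglia, by 1.04 ± 0.28 on the log2 scale (adjusted p = 0.0157 by edgeR), and it was then the only one of the 7 tested genes to be called. The 3 remaining DMXAA libraries lay above all 4 vehicle libraries, as did those of 8.33% of the genes tested. The monocyte and neutrophil marker list moved with DMXAA in the same nuclei. Its 7 genes summed to 565 to 632 CPM in WT microglia with vehicle and 716 to 856 CPM with DMXAA, 716 in replicate 3, and to 558 to 649 and 609 to 743 CPM in KO microglia. With vehicle 4 and with DMXAA 6 of the 7 had UMIs in WT. *Ly6c2* was at 0 in every microglial sample, *S100a8* and *Retnlg* were at 0 in WT vehicle, KO vehicle and KO DMXAA microglia, and the part of such cells in the *Casp4* values was not tested. The border macrophage list did not separate the groups, at 252 to 328 CPM with vehicle and 212 to 347 CPM with DMXAA in WT microglia. The microglial list did, at 10692 to 11443 CPM with vehicle and 6486 to 10566 CPM with DMXAA, 6486 in replicate 3, and in KO microglia it was at 9761 to 11760 and 11125 to 12158 CPM. Its part in the *Casp4* values was not tested.

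Over all 7 genes that could be tested in microglia, edgeR called 0 in WT mice, where 1.91% of all genes tested were called, and 1 gene, *Casp4*, had an unadjusted p under 0.05. It called 0 of 7 in KO mice (0.0% of all genes, and 0 at an unadjusted p under 0.05) and 0 of 7 for the interaction, that is the difference between the genotypes' DMXAA effects (0.157% of all genes), where *Ripk1* had an unadjusted p of 0.0446 (adjusted p = 0.56). DESeq2 also called 0 of the 7 in each, against 3.01%, 0.0% and 0.705% of all genes. Without WT DMXAA replicate 3, edgeR called 1 in WT (8.4% of all genes), 0 in KO (1.58%) and 0 for the interaction (0.873%). With all libraries, 5 of the 7 log2 fold changes were above 0 in WT, with a median of 0.32 against 0.03 over all genes tested, and 4 of 7 in KO, with a median of 0.12 against -0.0017. None of the 7 had all 4 DMXAA libraries above or below the 4 vehicle libraries in WT (2.4% of all genes lay above and 3.46% below) or in KO (3.61% and 2.52%).

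*Nlrp3* in WT microglia was at 99.8, 56.8, 55.9 and 28.6 CPM with vehicle and at 78.9, 54.9, 52.0 and 59.5 CPM with DMXAA. The DMXAA libraries lay within the vehicle range, and the log2 fold change was 0.07 ± 0.32, with a 95% interval of -0.56 to 0.70 (0.09 ± 0.29 without replicate 3). In KO microglia *Nlrp3* was at 47.7 to 106 CPM with vehicle and 44.4 to 94.9 CPM with DMXAA. *Gsdmd* in WT microglia was at 54.6, 56.8, 64.1 and 42.9 CPM with vehicle and 59.5, 75.2, 41.4 and 91.3 CPM with DMXAA, with replicate 3 the lowest of the 8. Its log2 fold change was 0.32 ± 0.24 (adjusted p = 0.753 by edgeR) and, without replicate 3, 0.46 ± 0.21 (adjusted p = 0.224 by edgeR).

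*Casp1*, which lies beside *Casp4*, was at 28.1, 26.0, 23.02 and 12.9 CPM in WT microglia with vehicle and at 36.0, 45.4, 5.91 and 33.1 CPM with DMXAA. Replicates 1, 2 and 4 lay above all vehicle libraries and replicate 3 lay below all of them. The log2 fold change was 0.42 ± 0.43 (adjusted p = 0.837 by edgeR) and, without replicate 3, 0.74 ± 0.30 (unadjusted p = 0.0204, adjusted p = 0.142 by edgeR). *Pycard* was at 129, 151, 127 and 130 CPM with vehicle and 191, 154, 26.0 and 138 CPM with DMXAA. Replicate 3 lay below all vehicle libraries and replicates 1 and 2 above them. Its log2 fold change was -0.08 ± 0.35 with replicate 3 and 0.24 ± 0.17 without it, so the sign rested on that library.

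The log2 fold change of the caspase-8 gene was below 0 in WT microglia and did not pass the threshold. *Casp8* was at 218, 255, 293 and 200 CPM with vehicle and 178, 229, 171 and 243 CPM with DMXAA, and the groups overlapped (log2 fold change -0.19 ± 0.14, adjusted p = 0.748 by edgeR, and -0.17 ± 0.14 without replicate 3). *Ripk1* was at 42.1, 45.4, 44.4 and 37.2 CPM with vehicle and 47.0, 67.4, 39.0 and 55.6 CPM with DMXAA in WT microglia, and at 61.4, 31.0, 66.1 and 52.8 against 26.5, 46.5, 46.6 and 46.8 CPM in KO microglia. The log2 fold changes were 0.34 ± 0.22 in WT (0.40 ± 0.23 without replicate 3) and -0.37 ± 0.24 in KO, and neither passed the test.

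*Mlkl* and *Ripk3* were too rare in microglia to be tested. *Mlkl* had 2 UMIs in WT microglia with vehicle and 10 with DMXAA, a ratio per UMI of the class of 4.33 with an exact 95% interval of 0.922 to 40.6, and 0 and 4 UMIs in KO microglia. *Ripk3* had 1 and 5 UMIs in WT (ratio 4.33, interval 0.484 to 205) and 0 and 2 in KO. Both intervals include 1, and they cover counting error only. Without WT DMXAA replicate 3 the *Mlkl* ratio was 5.45 (1.13 to 51.9), and without replicate 4 it was 5.81 (1.24 to 54.5), neither of which includes 1. Without replicate 1, which held 5 of the 10 UMIs, it was 2.86 (0.469 to 30.1). Of the 5 *Ripk3* UMIs 3 came from WT DMXAA replicate 1 and the 1 with vehicle from replicate 2, and without either library too few were left for a ratio. Without replicate 3 the *Ripk3* ratio was 4.85 (0.480 to 239).

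**Figure D2:**
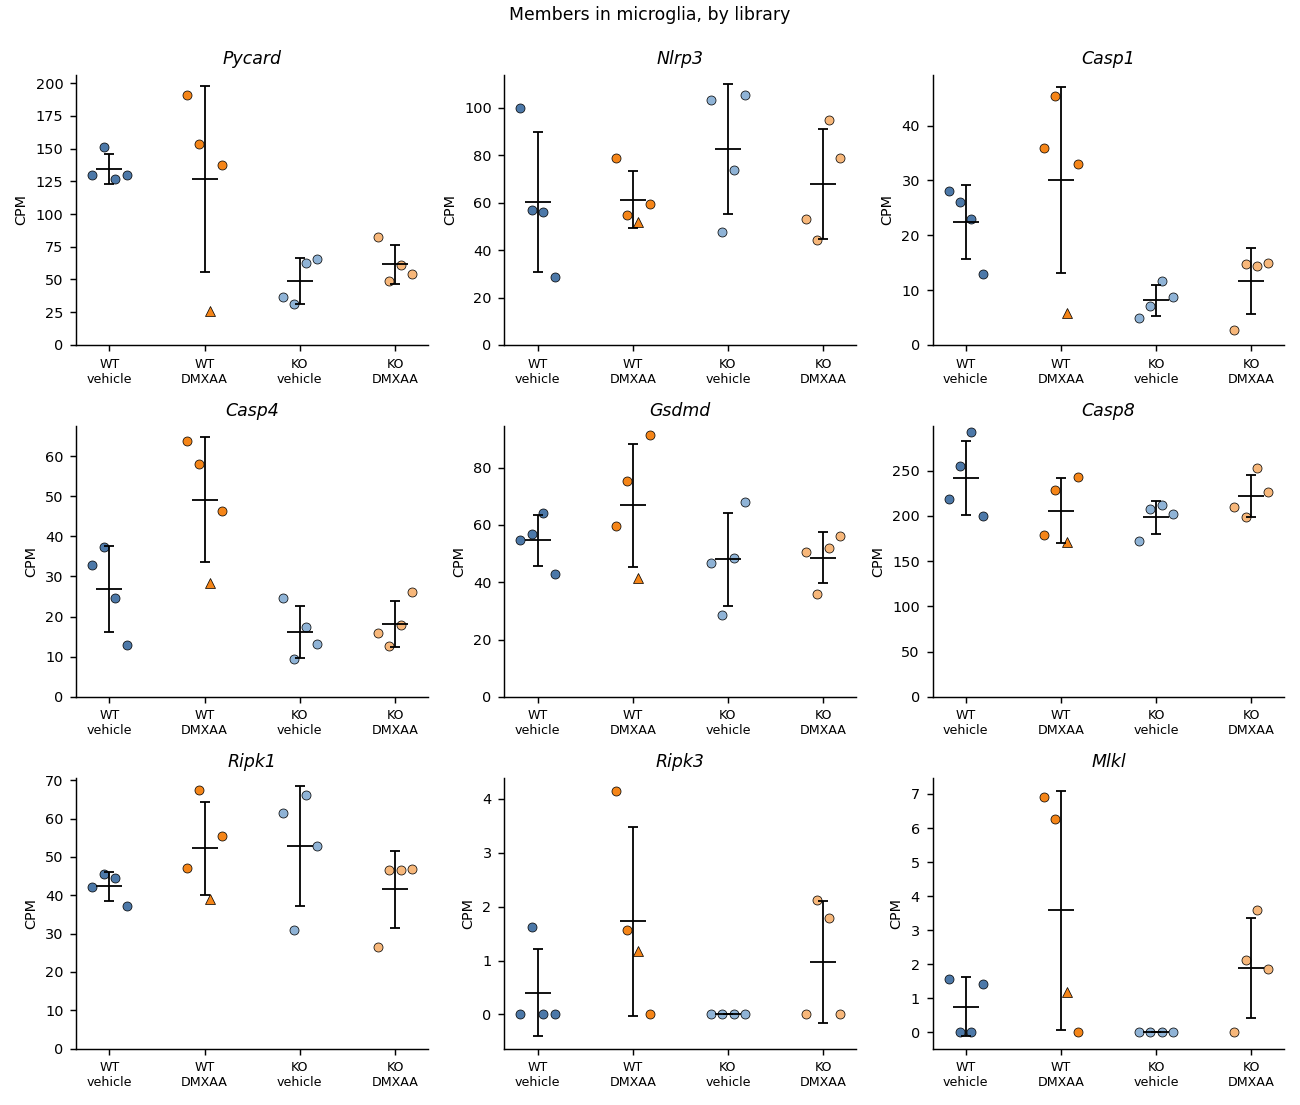
Level of each of the 9 genes in microglia (y axis, CPM) in the 4 groups of libraries (x axis). Points are libraries, WT DMXAA replicate 3 is the triangle, and bars show the mean ± SD of 4 libraries. WT DMXAA replicate 3 is the lowest WT DMXAA library for each of the 7 genes that could be tested. Among them are *Casp1* (5.91 CPM), *Casp4* (28.4 CPM), *Pycard* (26.0 CPM) and *Nlrp3* (52.0 CPM). KO vehicle libraries lie below WT vehicle libraries for *Casp1* and *Pycard*.

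Summed over all nuclei, *Casp4* was higher with DMXAA in WT mice in every library. Its level was 0.680, 0.775, 0.681 and 0.521 CPM with vehicle (27, 31, 25 and 21 UMIs) and 1.87, 1.13, 0.991 and 1.25 CPM with DMXAA (69, 43, 52 and 42 UMIs). All 4 DMXAA libraries, replicate 3 included, lay above all 4 vehicle libraries, which 0.939% of the genes tested did. The log2 fold change was 1.04 ± 0.29 (2.05-fold). Its adjusted p was 0.276 by edgeR (unadjusted p = 0.00237) and 0.0320 by DESeq2, so that the call depended on the tool. In KO mice *Casp4* was at 0.573, 0.488, 0.494 and 0.401 CPM with vehicle and 0.345, 0.238, 0.433 and 0.856 CPM with DMXAA, and the groups overlapped. The interaction was 1.18 ± 0.43 on the log2 scale (unadjusted p = 0.0136, adjusted p = 0.589 by edgeR). In a sum over all nuclei, more nuclei of a class and more RNA per nucleus cannot be told apart. The microglial marker list was at 253 to 284 CPM in WT with vehicle and at 150 to 343 CPM with DMXAA, 150 in replicate 3, where *Casp4* was also the lowest of the 4, and the monocyte and neutrophil list at 10.3 to 11.7 and 17.0 to 38.4 CPM. Their part in the *Casp4* values was not tested.

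*Mlkl* over all nuclei was at 0.378, 0.650, 0.654 and 0.571 CPM with vehicle and 0.787, 1.13, 0.610 and 0.926 CPM with DMXAA in WT mice. Replicates 1, 2 and 4 lay above all vehicle libraries and replicate 3 among them (log2 fold change 0.67 ± 0.23, unadjusted p = 0.0117, adjusted p = 0.676 by edgeR, and 0.71 ± 0.25, adjusted p = 0.164, without replicate 3). *Gsdmd* was at 1.11, 1.27, 1.28 and 1.07 CPM with vehicle and 1.57, 1.61, 1.01 and 2.33 CPM with DMXAA, where replicates 1, 2 and 4 lay above and replicate 3 below all vehicle libraries (0.50 ± 0.21, unadjusted p = 0.0293, adjusted p = 0.862 by edgeR, and 0.59 ± 0.20, adjusted p = 0.169, without replicate 3). In all, 8 of the 9 genes could be tested over all nuclei, *Ripk3* being too rare (5 UMIs with vehicle and 8 with DMXAA in WT, ratio 1.56, interval 0.450 to 6.06, and 0.506, 0.0482 to 3.09, without replicate 1, which held 6 of the 8). In WT mice edgeR called 0 of 8 (0.462% of all genes), 3 fell below 0.05 without adjustment, DESeq2 called 1 (0.895% of all genes), and 7 of 8 were above 0, with a median of 0.28 against 0.01 over all genes. Without WT DMXAA replicate 3, edgeR called 0 of 8 (1.37% of all genes), and *Casp4* had an adjusted p of 0.0971. In KO mice edgeR called 0 of 8 (0.0% of all genes), none had an unadjusted p under 0.05, and DESeq2 called 0 (0.0249%). For the interaction edgeR called 0 of 8 (0.0646%), *Casp4* and *Mlkl* had an unadjusted p under 0.05, and DESeq2 called 0 (0.835%).

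**Figure D3:**
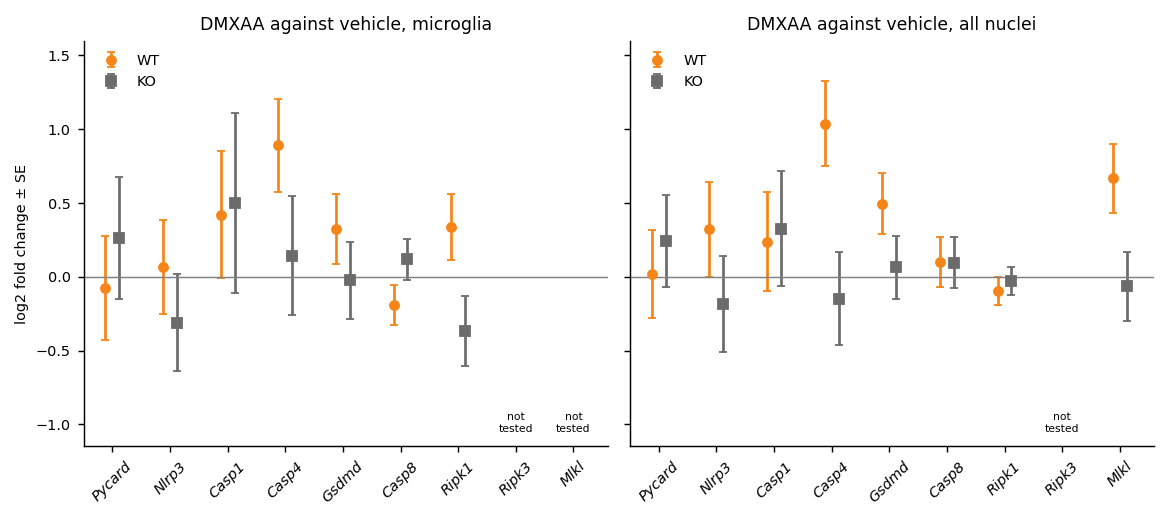
Log2 fold change of DMXAA against vehicle with its standard error (y axis) for each gene (x axis) in microglia (left) and over all nuclei (right), from edgeR. Circles are WT and squares KO mice, 4 libraries a group. *Casp4* in WT mice is the highest point in both panels, at 0.89 and 1.04, and genes too rare to fit are marked as not tested.

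Outside microglia, 15 pairs of a class and a gene could be tested in WT mice, over 8 classes. edgeR called 0 of 15 (0.169% of all pairs of gene and class in the same classes), DESeq2 called 0 (0.381%), and 1 pair had an unadjusted p under 0.05. This pair was *Ripk1* in oligodendrocytes, at 31.8, 33.5, 27.5 and 33.4 CPM with vehicle and 18.3, 21.9, 20.9 and 28.9 CPM with DMXAA. Replicates 1 to 3 with DMXAA lay below all vehicle libraries (log2 fold change -0.37 ± 0.15, unadjusted p = 0.0233, adjusted p = 0.819 by edgeR, with 0.0% of all genes called in oligodendrocytes). Without replicate 3 it was -0.35 ± 0.16 (unadjusted p = 0.0381, adjusted p = 0.27 by edgeR), and none of the pairs that could still be tested was called. In KO mice edgeR called 0 of 15 (0.0046%), none at an unadjusted p under 0.05, and DESeq2 called 0 (0.0023%). For the interaction edgeR called 0 of 14 (0.0132%), 1 fell below 0.05 without adjustment, and DESeq2 called 0 (0.116%). *Mlkl* in oligodendrocytes, the class with the most of its UMIs, was at 2.03, 4.89, 5.14 and 6.95 CPM with vehicle and 3.73, 6.98, 3.17 and 6.42 CPM with DMXAA in WT mice, and the groups overlapped (log2 fold change 0.24 ± 0.39, and 0.41 ± 0.39 without replicate 3). *Pycard* in choroid plexus, named after its values were seen and also too rare to test, was at 3.63, 8.68 and 8.43 CPM with vehicle (13 UMIs in replicates 1 to 3) and 31.2, 14.04 and 18.3 CPM with DMXAA (41 UMIs in replicates 1, 2 and 4), the libraries with at least 20 such nuclei. In KO mice *Pycard* there was at 2.54 ± 1.36 CPM with vehicle (n = 3, 6 UMIs) and 5.78 ± 2.56 CPM with DMXAA (n = 3, 9 UMIs). *Pycard* in choroid plexus stood at 7.89% of its microglial level. This was above the median of the microglial markers there (0.363%) but below the highest (*Cx3cr1*, 15.2%). By that highest marker, these UMIs cannot be told apart from carried-over RNA either.

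In border macrophages, the other immune class, *Casp8* was the one gene that could be tested, and only in WT mice for DMXAA. It was at 192, 125, 32.8 and 162 CPM with vehicle and at 120, 62.5 and 55.0 CPM in DMXAA replicates 1 to 3, and the groups overlapped (log2 fold change -0.70 ± 0.46, adjusted p = 0.504 by edgeR). Without replicate 3 too few libraries were left for the test. Replicate 3 held 182 nuclei of this class. Over all nuclei, however, its border macrophage list summed to 19.5 CPM, the lowest of the WT DMXAA libraries. Whether its nuclei here were the same cells as in the other libraries was not tested. The other inflammasome genes had few UMIs in border macrophages. In WT mice *Nlrp3* had 11 UMIs with vehicle and 22 with DMXAA (ratio per UMI 1.04, exact 95% interval 0.486 to 2.39), of which 16 came from WT DMXAA replicate 3 (ratio without it 0.814, 0.247 to 2.40). *Casp4* had 10 and 21 (ratio 1.10, 0.494 to 2.61, and 1.64, 0.633 to 4.31, without replicate 3). *Gsdmd* had 12 and 9 (0.392, 0.146 to 1.01, and 0.249, 0.0270 to 1.12, without it), *Casp1* 10 and 8 (0.418, 0.143 to 1.18, and 0.746, 0.20 to 2.39, without it), and *Pycard* 10 and 10 (0.522, 0.195 to 1.40). These WT intervals include 1, but those of *Gsdmd* without WT vehicle replicate 3 (0.338, 0.124 to 0.897) or 4 (0.355, 0.130 to 0.943) and of *Casp1* without WT vehicle replicate 3 (0.331, 0.113 to 0.930) lay below 1. In KO mice *Casp1* had 3 UMIs in 3 vehicle libraries and 12 in 2 DMXAA libraries (ratio 3.94, interval 1.06 to 21.8), 8 of the 12 from KO DMXAA replicate 3. Without that library the ratio was 2.13 (0.360 to 14.5), without KO vehicle replicate 4 it was 2.41 (0.651 to 13.3) and without KO vehicle replicate 3 it was 3.79 (0.843 to 34.8), and these 3 intervals include 1. Without KO vehicle replicate 2 it was 8.86 (1.31 to 379) and without KO DMXAA replicate 4 it was 6.89 (1.65 to 40.3). *Nlrp3* in KO mice had 6 and 11 UMIs (ratio 1.81, 0.613 to 5.95), and without KO vehicle replicate 2, which held 5 of the 6, its ratio was 8.12 (1.18 to 349.7). The ratios of *Casp4*, *Gsdmd* and *Pycard* in KO mice lay below 1, with intervals that include it. *Casp4* had 10 and 6 UMIs (0.592, 0.177 to 1.797), *Gsdmd* 5 and 4 (0.789, 0.157 to 3.67) and *Pycard* 4 and 1 (0.247, 0.00501 to 2.49). Of the 10 *Casp4* UMIs with vehicle, 6 came from KO vehicle replicate 3. The *Gsdmd* ratio ran from 0.319 to 1.55 on leaving out 1 library, so its side of 1 rested on single libraries.

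At rest, *Pycard* was lower in KO than in WT mice in microglia, excitatory neurons and astrocytes. In microglia with vehicle it was at 129, 151, 127 and 130 CPM in WT and at 36.9, 31.0, 62.2 and 66.0 CPM in KO mice, and the groups did not overlap. The log2 fold change was -1.33 ± 0.39 (0.398-fold, adjusted p = 0.0346 by edgeR), and *Pycard* was the only one of the 7 genes called in microglia, where 13.2% of all genes were called. The call was lost, at an adjusted p of 0.0532 to 0.108 by edgeR, without any 1 of WT vehicle replicates 1 to 4 or KO vehicle replicates 1 to 3. In excitatory neurons *Pycard* was at 10.7, 14.1, 10.6 and 9.56 CPM in WT and 4.49, 2.87, 5.64 and 5.48 CPM in KO mice (log2 fold change -0.82 ± 0.31, adjusted p = 0.0359 by edgeR), where 48.9% of all genes were called. The fold changes of edgeR include a further scaling between libraries (TMM) that the CPM values lack. The fall by CPM is therefore larger here than the log2 fold change. In astrocytes *Pycard* fell by 1.19 ± 0.41 on the log2 scale (adjusted p = 0.0377 by edgeR, 29.7% of all genes called). In inhibitory neurons its change of -0.74 ± 0.36 did not pass (adjusted p = 0.109 by edgeR, 39.2% of all genes called). These were 2 of the 15 pairs tested outside microglia, against 31.6% of all pairs of gene and class, so the share called was not above the background. Both of these *Pycard* calls were lost without any 1 of WT vehicle replicates 1 and 2 or KO vehicle replicates 1 and 2 (adjusted p 0.0554 to 0.109 in excitatory neurons and 0.0726 to 0.131 in astrocytes by edgeR). The astrocyte call was also lost without WT vehicle replicate 4 (0.0528), without the filter on low counts (0.0504) and with nuclei over 4000 genes kept (0.0508).

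*Casp1* followed *Pycard*. In microglia with vehicle it was at 28.1, 26.0, 23.02 and 12.9 CPM in WT and at 4.92, 7.16, 11.7 and 8.80 CPM in KO mice. The groups did not overlap, but the change of -1.30 ± 0.55 did not pass (adjusted p = 0.117 by edgeR). *Casp1* and *Pycard* were the 2 of 7 genes whose KO libraries lay below all WT libraries in microglia, as did those of 18.1% of all genes. Over all nuclei both were called, *Casp1* at -1.32 ± 0.37 (adjusted p = 0.00951 by edgeR) and *Pycard* at -1.03 ± 0.31 (adjusted p = 0.0125 by edgeR), 2 of 8 genes where 48.8% of all genes were called, and their KO libraries lay below all WT libraries, as did those of 46.4% of all genes. With nuclei over 4000 genes kept, the *Casp1* call was lost (-0.73, adjusted p = 0.0704 by edgeR). *Casp1* was at 1.46, 0.9998, 1.23 and 0.819 CPM in WT and 0.362, 0.402, 0.269 and 0.401 CPM in KO mice over all nuclei. The other 5 genes tested in microglia were not called at rest. *Nlrp3* was at 28.6 to 99.8 CPM in WT and 47.7 to 106 CPM in KO mice (0.57 ± 0.32) and *Casp4* at 12.9 to 37.3 and 9.54 to 24.6 CPM (-0.61 ± 0.37).

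The library WT DMXAA replicate 3 lay below the KO libraries for *Pycard* in microglia, and among them for *Pycard* in excitatory neurons and for *Casp1* over all nuclei. *Pycard* was at 26.0 CPM in its microglia and 3.25 CPM in its excitatory neurons, against 31.0 to 82.3 and 2.87 to 6.50 CPM in the 8 KO libraries and at least 127 and 9.56 CPM in the other 7 WT libraries. *Casp1* was at 0.362 CPM in it over all nuclei, against 0.269 to 0.674 CPM in KO and 0.819 to 2.01 CPM in the other WT libraries. Although that library is not in the resting comparison, it enters the shared estimate of the spread. Without it, the change in microglia was -1.28 ± 0.20 for *Pycard* (adjusted p = 1.8e-05 by edgeR) and -1.25 ± 0.41 for *Casp1* (adjusted p = 0.0208 by edgeR), 2 of 7 genes against 30.7% of all genes. Over all nuclei both stayed called (59.3% of all genes), and *Pycard* was called in astrocytes (42.9% of all genes), excitatory neurons (58.7%) and inhibitory neurons (48.1%, log2 fold change -0.72 ± 0.29). With so large a part of all genes differing at rest, and with genotype, age and cohort joined, these changes cannot be told apart from those of the cohorts. *Malat1* differed in the same way, at 31.7% of its WT level in KO libraries (two-sided exact permutation test, p = 0.000622).

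**Figure D4:**
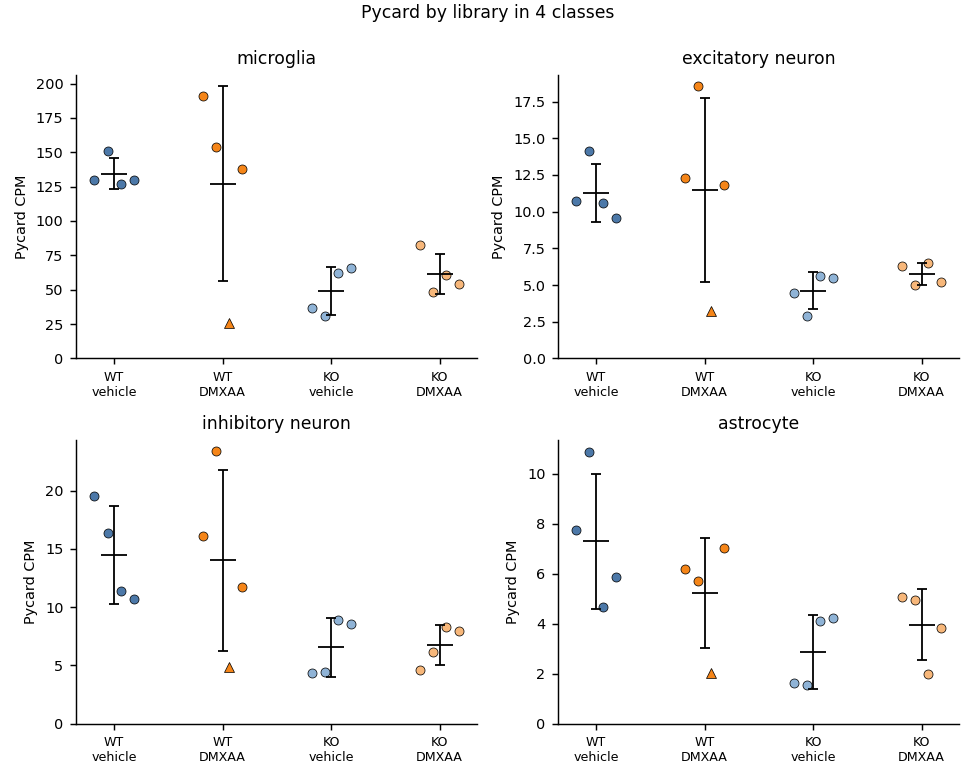
Level of *Pycard* (y axis, CPM) in microglia, excitatory neurons, inhibitory neurons and astrocytes in the 4 groups of libraries (x axis). Points are libraries, WT DMXAA replicate 3 is the triangle, and bars show the mean ± SD of 4 libraries. In each of the 4 classes the KO vehicle libraries lie below the WT vehicle libraries, and WT DMXAA replicate 3 lies below the KO libraries in microglia (26.0 CPM) and among them in the other classes.

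The members of these pathways work with many other proteins, and 59 further genes were read in 6 groups by role. They are death receptors with their ligands and adaptors, the ubiquitin ligases and kinases that hold RIPK1 and caspase-8 in check, other inflammasome sensors, partners of NLRP3, cytokine substrates, and other caspases with genes of membrane rupture. Of the 59, 37 could be tested in microglia. The list was chosen with earlier results of these data known, so its counts are not an independent test of the pathways. In WT mice edgeR called 0 of 37, where 1.91% of all genes were called, 6 fell below 0.05 without adjustment, DESeq2 called 1 (3.01% of all genes), and 29 were above 0, as were 54.5% of all genes, with a median log2 fold change of 0.15 against 0.03 over all genes. In KO mice edgeR called 0 of 37 (0.0% of all genes), 1 had an unadjusted p under 0.05 and 25 were above 0 (49.6% of all genes; median 0.09). For the interaction edgeR called 0 of 37 (0.157% of all genes), with 4 below 0.05 before adjustment. The share of all genes below 0.05 before adjustment is not given, so these counts are not read as an excess.

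Of the 6 genes with an unadjusted p under 0.05 in WT microglia, 3 were sensors of the NAIP family. NAIP proteins bind bacterial flagellin and secretion needles and signal through NLRC4. *Naip2* was at 105 to 120 CPM with vehicle and 242, 168, 113 and 161 CPM with DMXAA (log2 fold change 0.65 ± 0.18, adjusted p = 0.0867 by edgeR), *Naip6* at 62.9 to 84.4 CPM and 152, 138, 59.1 and 110 CPM (0.68 ± 0.22), and *Naip5* had a log2 fold change of 0.56 ± 0.26 (0.65 ± 0.22 without replicate 3). *Naip2*, *Naip5* and *Naip6* are related genes of the same family, so reads may be split between them where their sequences match. Replicate 3 lay among the vehicle libraries for *Naip2* and *Naip5* and below them for *Naip6*. *Rnf31* encodes a subunit of the linear ubiquitin ligase that restrains RIPK1. It was at 12.5, 21.1, 11.5 and 21.5 CPM with vehicle and 45.7, 23.5, 31.9 and 30.4 CPM with DMXAA. All 4 DMXAA libraries lay above the vehicle libraries, and the share of all genes that did so is given above. *Rnf31* was not called (1.02 ± 0.30, adjusted p = 0.113 by edgeR, and 0.97 ± 0.32, adjusted p = 0.0547 by edgeR, without replicate 3). *Tlr3*, the receptor for double-stranded RNA, was at 60.8, 63.3, 47.7 and 64.4 CPM and at 129, 139, 36.6 and 79.4 CPM (0.71 ± 0.29). *Il18*, a substrate of caspase-1, had a log2 fold change of 0.49 ± 0.20 (0.52 ± 0.19 without replicate 3).

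Without WT DMXAA replicate 3, 3 of the 37 were called higher in WT microglia. This share was not above the 8.4% of all genes called in the same fit. The 3 were *Naip6* (0.85 ± 0.17, adjusted p = 0.00145 by edgeR), *Naip2* (0.76 ± 0.16, adjusted p = 0.00233 by edgeR) and *Tlr3* (0.94 ± 0.21, adjusted p = 0.00306 by edgeR). *Naip6* was then also called for the interaction (1.13 ± 0.26, adjusted p = 0.0263 by edgeR, 0.873% of all genes). Of the other genes named by rule for their group, *Traf2* (0.63 ± 0.34), *Nlrp1b* (0.20 ± 0.14), *Birc3* (0.27 ± 0.19), *Birc2* (0.28 ± 0.21), *Xiap* (0.19 ± 0.12) and *Apaf1* (0.35 ± 0.20) were above 0 and *Txnip* (-0.51 ± 0.28) and *Nek7* (-0.17 ± 0.10) below. None of them was called in the main edgeR fit with all libraries. *Casp9* (0.39 ± 0.37) and *Brcc3* (0.26 ± 0.28) were also above 0, while *Tlr4* (0.09 ± 0.14), *Tnfrsf1b* (0.07 ± 0.16), *Il1a* (0.05 ± 0.39) and *P2rx7* (0.02 ± 0.10) lay within 0.1 of 0. By role, 5 of 6 tested sensors, 11 of 15 genes that restrain RIPK1 and caspase-8, 5 of 5 death receptor genes, 2 of 2 cytokine genes, 4 of 5 genes of other caspases and membrane rupture and 2 of 4 partners of NLRP3 were above 0 in WT microglia, beside 54.5% of all genes tested. The sensors include the related genes *Naip2*, *Naip5* and *Naip6*. With the list chosen as stated above, these counts describe the listed genes only.

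The gene of the list that moved most was *Zbp1*, a sensor of Z-form nucleic acids that can start necroptosis through RIPK3. It was too rare in microglia for the test, at 0, 1.62, 0 and 0 CPM in WT microglia with vehicle (1 UMI) and 96.9, 26.6, 9.46 and 13.2 CPM with DMXAA (105 UMIs), a ratio per UMI of 90.9 with an exact 95% interval of 15.96 to 3623. Of the 105 UMIs 70 came from WT DMXAA replicate 1, and without it the ratio was 40.1 (6.73 to 1627). Without replicate 3 it was 118 (20.6 to 4689). All 4 DMXAA libraries lay above all vehicle libraries. In KO microglia it was at 0 in all 8 libraries. Over all nuclei *Zbp1* was called in WT mice, the only one of 53 genes tested (log2 fold change 3.22 ± 0.63, adjusted p = 0.0282 by edgeR, 0.462% of all genes). Without WT DMXAA replicate 3 *Zbp1* (3.51), *Naip6* (1.06), *Txnip* (0.75) and *Tlr3* (0.61) were called (1.37% of all genes). *Ripk3*, the partner of *Zbp1*, had 5 UMIs with vehicle and 8 with DMXAA over all WT nuclei, too few to tell a rise of several fold from none.

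Among the 22 genes of the list that could not be tested in microglia were the cytokine genes *Il1b* (17 UMIs in all 16 libraries) and *Tnf* (37 UMIs), the adaptor gene *Nlrc4* (5 UMIs) and the death receptor gene *Fas* (20 UMIs). At rest 6 of the 37 were called between KO and WT microglia, where 13.2% of all genes were called. The TNF receptor gene *Tnfrsf1b* (0.76 ± 0.16), *Otulin* (0.62 ± 0.15), which removes linear ubiquitin, and *Cflar* (0.43 ± 0.11), which encodes an inhibitor of caspase-8, were higher in KO mice. *Sharpin* (-1.25 ± 0.38) and *Ikbkg* (-0.999 ± 0.31), both of linear ubiquitin signalling, and the gasdermin gene *Gsdme* (-1.07 ± 0.33) were lower.

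**Figure D5:**
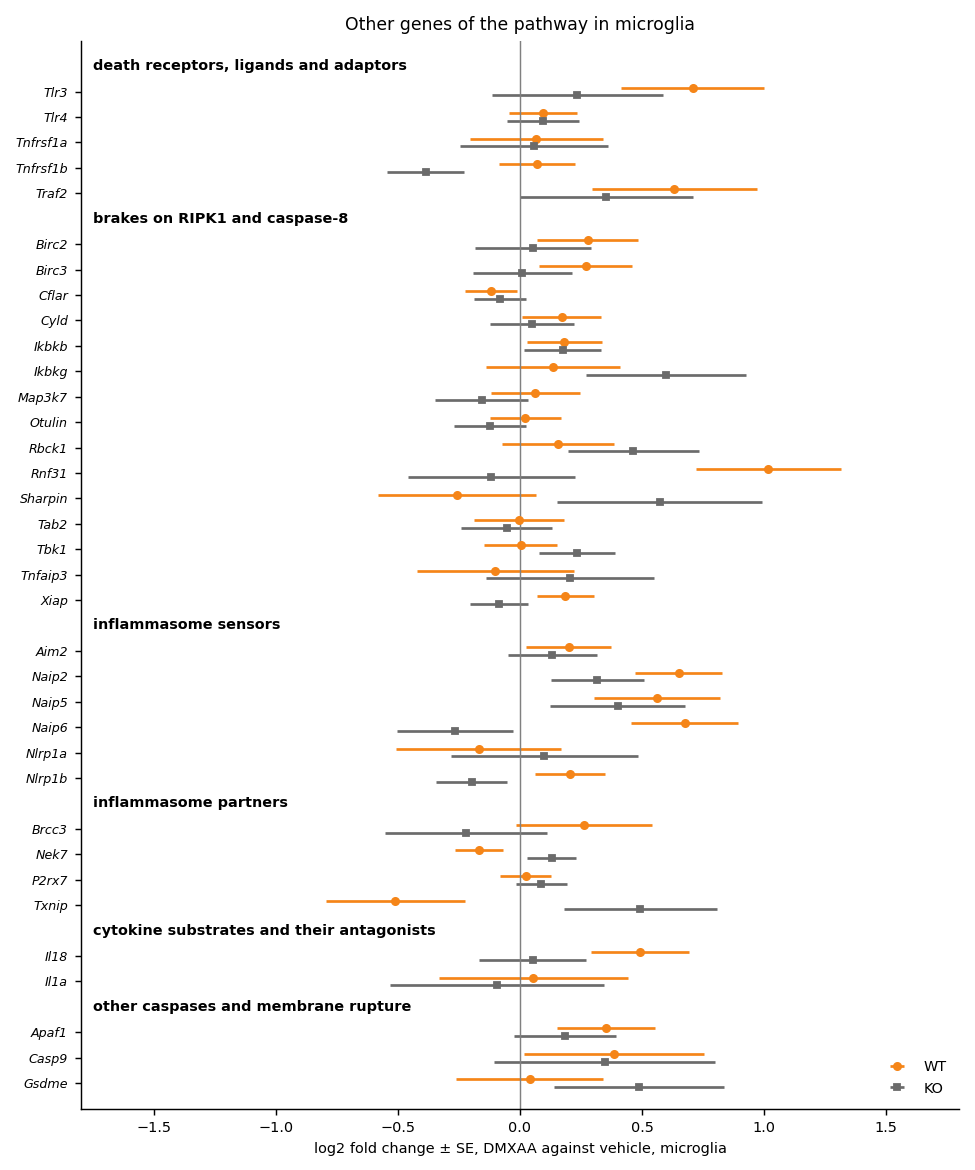
Log2 fold change of DMXAA against vehicle in microglia with its standard error (x axis) for further genes of the pathways that could be tested (y axis, grouped by role), from edgeR. Circles are WT and squares KO mice, 4 libraries a group. *Rnf31* (1.02), *Tlr3* (0.71), *Naip6* (0.68) and *Naip2* (0.65) are the highest WT points. None of the genes shown was called in the main edgeR fit with all libraries.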

How the data were processed

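Nuclei from hippocampi of 16 male mice were sequenced with the 10x 3′ single-nucleus RNA-seq assay. The authors deposited raw UMI counts per gene and barcode, aligned to mm10 with intronic reads counted. The submitters' processing notes name Cell Ranger 3.1.0 and Seurat 3.0, whereas the file headers name Cell Ranger 6.1.2. From these counts, nuclei with 200 to 4000 genes and at most 5% mitochondrial UMIs were kept, and doublets were scored and removed at 0.8% per 1000 barcodes. Counts were scaled to 10000 per nucleus, and 2000 variable genes, 30 principal components, 20 neighbours and a resolution of 0.5 gave 29 clusters (Python 3.11.15, NumPy 2.4.6, SciPy 1.17.1, leidenalg 0.10.2, igraph 0.11.9). A cluster took a class name when at least 3 markers of that class, and no fewer than the list's markers left over, were detected in over 10% of its nuclei, at a CPM + 5 above 2 times that of the cluster at the 25th percentile. The class also had to lead by 0.2 in mean log2 enrichment, no rival list could hold more of the cluster's top 10 genes, and very shallow clusters stayed unnamed. These thresholds were set after clusters had been seen.

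Counts were summed per library and class (at least 20 nuclei) and fitted with edgeR 4.0.16 (quasi-likelihood, TMM, R 4.3.3, limma 3.58.1) over all genes and all 16 libraries, with one mean per group. DESeq2 1.42.0 was an alternative. TMM scaling enters the log2 fold changes but not the CPM values, so the fold changes and the CPM values can differ in size. The step was tested on simulated data. A call required a Benjamini-Hochberg adjusted p below 0.05 with a log2 fold change beyond 0.1 in size. The SE is the log2 fold change over the root of the F statistic. A count of 0 allows up to 3 counts, and 95% intervals of ratios of counts cover counting error only, while that of a log2 fold change is built from its SE. P-values measure the spread between mice. Counts of genes at an unadjusted p under 0.05 are given without the share of all genes at that level. They are not read as an excess. The members and lists were chosen with earlier results of these data known. All 9 members were named in every class, with up to 4 genes per role of the pathway list by lowest p in WT microglia and any called in a contrast, and *Ifnar1* as a check. Leaving out each library for the ratios of counts, and the microglial shares under other filters on nuclei, were added after the data were seen. Some genes of the pathway list and 1 motif are not reported here.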

Additional observations from a re-analysis of the deposited data

Results flagged for a closer look

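In 5 of 72 groups of 4 libraries, 1 library lay far from the other 3 by Dixon's gap test. Chance flags about 1 in 20 groups. In KO DMXAA microglia, replicate 1 was at 26.5 CPM for *Ripk1*, against 46.5 to 46.8 CPM in the other 3, and at 2.65 CPM for *Casp1*, against 14.3 to 15.0 CPM. In WT vehicle microglia, replicate 2 was at 151 CPM for *Pycard*, against 127 to 130 CPM, and at 1.62 CPM (1 UMI) for *Ripk3*, against 0. Over all nuclei, WT DMXAA replicate 1 was at 0.163 CPM for *Ripk3*, against 0 to 0.0263 CPM in the other 3.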

How the results depend on the processing

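Alternatives were DESeq2, its size factors in edgeR (RLE), no filter on low counts, nuclei over 4000 genes or doublets kept, a minimum of 500 genes and each library left out. Member calls in microglia in WT mice were 0 to 1 (1 without WT DMXAA replicate 3), and at rest 0 to 2, where *Pycard* had an adjusted p of 0.0532 to 0.108 by edgeR without any 1 of WT vehicle 1 to 4 or KO vehicle 1 to 3. At rest calls were 1 of 8 over all nuclei with nuclei over 4000 genes kept (*Casp1* lost), and in other classes 1 without the filter and 0 to 3 on leaving libraries out. DESeq2 called 1 member over all nuclei in WT mice. Of the pathway list in WT microglia 1 gene was called by DESeq2, 1 without the filter, 1 with nuclei over 4000 genes kept and 0 to 3 on leaving libraries out, and 0 to 1 for the interaction. *Mlkl* at rest over all nuclei was called with RLE (0.61) and doublets kept (0.60).

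Direction turned for values that had not been called. With doublets kept, *Casp1* changed to 0.12 (interaction, microglia) and 0.027 (interaction, all nuclei), *Casp8* to 0.073 (rest) and *Pycard* to -0.020 (WT). With nuclei over 4000 genes kept, over all nuclei, *Casp1* changed to -0.25 (KO) and 0.39 (interaction), *Casp8* to -0.049 (KO) and 0.015 (rest), *Gsdmd* to -0.033 (KO) and -0.023 (rest), *Pycard* to -0.041 (WT), and *Gsdmd* in microglia to 0.10 (KO). Without the filter *Casp8* changed to -0.012 (interaction, all nuclei) and *Gsdmd* to 0.00097 (KO, microglia). On leaving 1 library out, values over all nuclei ran, for *Casp1*, from -0.0209 to 0.516 (WT) and -0.348 to 0.183 (interaction), for *Casp4* from -0.576 to 0.0433 (KO), for *Casp8* from -0.0332 to 0.190 (KO), -0.153 to 0.0303 (rest), -0.0377 to 0.193 (WT) and -0.134 to 0.135 (interaction), for *Gsdmd* from -0.0929 to 0.162 (KO) and -0.0813 to 0.173 (rest), for *Mlkl* from -0.227 to 0.0657 (KO), for *Pycard* from -0.224 to 0.293 (WT) and -0.467 to 0.0541 (interaction), and for *Ripk1* from -0.0707 to 0.00432 (KO) and -0.124 to 0.00594 (interaction). In microglia they ran, for *Casp1*, from -0.344 to 0.244 (interaction), for *Casp4* from -0.0985 to 0.391 (KO), for *Gsdmd* from -0.189 to 0.183 (KO) and -0.265 to 0.108 (rest), for *Nlrp3* from -0.187 to 0.420 (WT), and for *Pycard* from -0.342 to 0.242 (WT) and -0.604 to 0.00901 (interaction). The cause was not tested.

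No paired analysis was possible because replicate numbers only name the libraries. The comparison of the DMXAA effect between microglia and other classes gave no value, since no member was called in either. *Mlkl* and *Ripk3* are limited by depth in microglia.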
